A study of Mus musculus with 61 samples.

Results

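The collagen genes of mouse liver were described across 8 inbred strains. They were found by their symbols, Col followed by a number, the letter a and a second number, in the deposited gene table. The rule found 37 of the 18754 genes in the table. By the kind of assembly that their chains form, 9 were fibrillar, 8 belonged to basement membranes and 20 were of other types. The rule used symbols only, though it was chosen with earlier results of these data known. Every gene of the table was above 0 in at least 29 libraries, and 7 further collagen genes (Col2a1, Col6a4, Col9a1, Col9a2, Col11a1, Col19a1 and Col26a1) had no row and were not analysed here.

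Collagens are secreted proteins in which chains wind around each other into a rope-like helix. Each chain repeats the unit glycine, X, Y, because only glycine is small enough to sit at the centre of the helix. Fibrillar chains (types I, III, V, XI, XXIV and XXVII) pack into banded fibres. Type IV chains form the sheet of basement membranes, and types XV and XVIII sit at their margins. The other types decorate fibres, form beaded filaments, anchor epithelia or stay in the cell membrane. In liver, hepatic stellate cells and portal fibroblasts are known as the main sources of fibrillar collagen, endothelial cells contribute basement membrane chains, and hepatocytes are a known source of type XVIII. Scar formation in liver disease is built largely from types I and III.

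The study sequenced polyadenylated liver RNA from 8 strains, the founders of the Diversity Outbred stock, all fed a high-fat, high-sugar diet labelled as 45 percent fat, so that no group lacked the diet. The labels name the strains AJ, B6, Cast, NOD, NZO, PWK, WSB and one by a bare number, written strain-129 throughout, with no allele, age or sex. The table held 8 libraries each of strain-129, NOD, NZO, PWK and WSB, 7 each of B6 and Cast, and 6 of AJ, 60 libraries of the 61 samples labelled. The labels do not say that each library came from a separate mouse, so p-values measure the spread between libraries, which may be partly technical. Totals ran from 19.98 to 69.17 M reads with a median of 30.42 M. Levels are given as CPM, the reads of a gene per M reads of its library, TMM-normalised, so that 1 CPM rested on about 1 read per M. Rn18s-rs5, a sequence of 18S ribosomal RNA, took over 10% of the reads in 4 libraries (NZO 3, 4, 6 and 7, 11.3 to 16.0%), against a median of 5.20% over all. Xist, which coats the silenced X chromosome, was between 646 and 1421 CPM in 31 libraries and between 0.193 and 8.90 CPM in 29, and both kinds occurred in every strain. Xist enters below only as a measured value of a library, and its part in any strain difference was not tested unless a value is given.

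The repeat can be read from the coding sequences (GENCODE M21, GRCm38). The first 18 codons of the longest uninterrupted run of glycine, X, Y are shown for chains on which the results below turn, 5′ to 3′, with the glycine codons in capitals. Chains that form fibres are set beside a type IV chain and a type XXVIII chain.
Col1a1: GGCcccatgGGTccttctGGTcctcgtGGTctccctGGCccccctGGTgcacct
Col3a1: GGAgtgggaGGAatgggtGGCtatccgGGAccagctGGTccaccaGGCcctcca
Col5a2: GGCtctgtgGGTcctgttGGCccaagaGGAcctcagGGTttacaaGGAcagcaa
Col4a1: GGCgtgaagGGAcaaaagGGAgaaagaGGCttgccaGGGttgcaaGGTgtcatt
Col28a1: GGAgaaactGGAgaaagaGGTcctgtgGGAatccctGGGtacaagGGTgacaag
The run spanned 338 triplets in Col1a1, 344 in Col3a1 and 339 in Col5a2. In Col4a1 the longest run was 40 triplets, and its 443 repeat triplets in runs of 6 or more were broken up by interruptions. Col28a1 had the shortest longest run of the 37 genes, 28 triplets. The median over the 37 genes was 56 triplets, and the 7 genes with runs over 300 were all fibrillar.

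Levels between genes were compared per kilobase of exon, since a longer RNA gives more fragments. Col18a1, whose protein gives rise to the fragment endostatin, stood first at a mean of 167 CPM per kb over the strains. Col14a1, which coats fibrils, followed at 10.4 CPM per kb, then Col5a2 at 10.3, Col4a1 at 8.20 and Col4a2 at 6.04. The fibrillar chains Col27a1 (3.87 CPM per kb), Col3a1 (3.55) and Col5a3 (3.27) came next. The chains of type I, which make up most of scar tissue, ranked 12 and 13 at 1.29 CPM per kb for Col1a1 and 1.21 for Col1a2. At the bottom stood Col25a1 (0.0298 CPM per kb) and Col22a1 (0.00733).

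**Figure D1:**
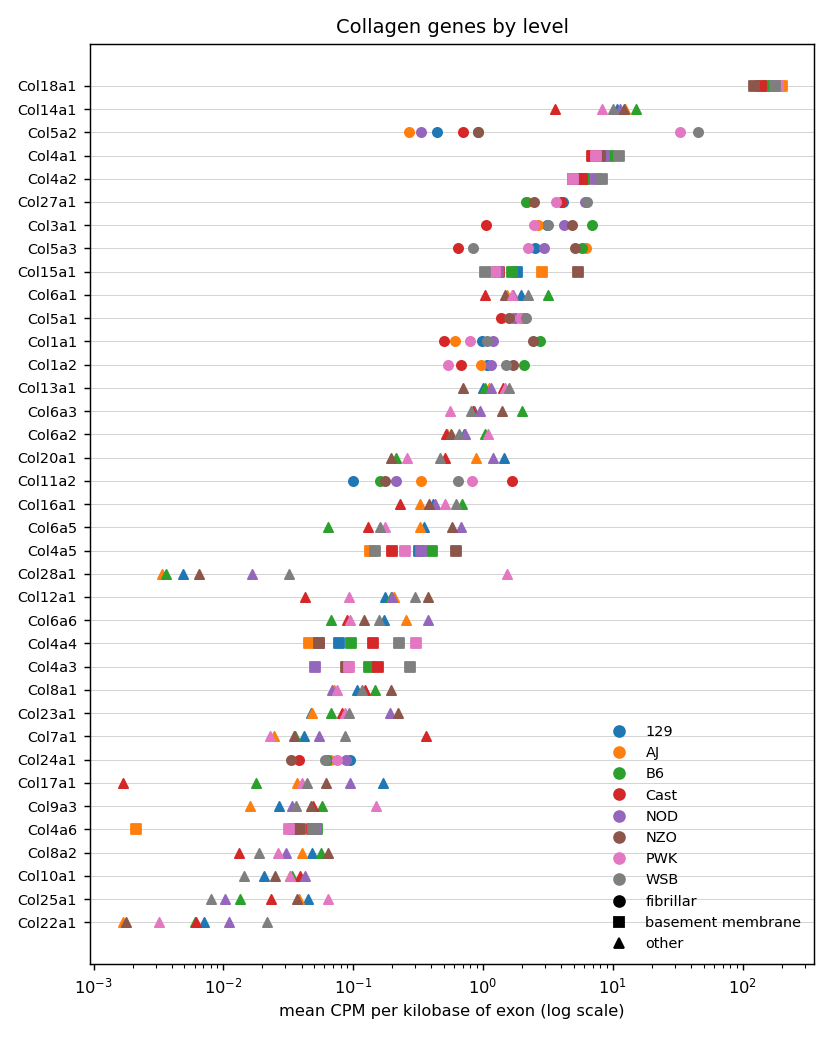
Mean level of the 37 collagen genes over the 8 strains, in CPM per kilobase of exon on a log axis, one row per gene. Col18a1 at 167 CPM per kb lies above all others, and the next gene, Col14a1, is at 10.4.

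Summed per kilobase, basement membrane chains carried most of the collagen RNA in every strain, from 72.5% ± 7.88 (SD, n = 8) in WSB to 88.2% ± 2.99 (n = 7) in Cast. Most of this class sum was Col18a1 in every strain, so the share describes mainly that gene. In WSB Col18a1 stood at a mean of 178.5 CPM per kb, of a class sum of 199.7. In Cast it stood at 137.4, of a class sum of 152.0. Fibrillar chains summed to 61.3 ± 30.3 CPM per kb in WSB and 45.5 ± 23.96 in PWK (n = 8 each), and to strain means of 10.6 to 22.7 in the other 6 strains. Without Col5a2 the fibrillar sum was 15.8 ± 3.87 in WSB and 12.5 ± 3.57 in PWK, inside the range of the other strains. The sum over all collagens was lowest in Cast, 172 ± 39.7 CPM per kb (n = 7), and in NZO, 180 ± 20.1 (n = 8). Col18a1 made up most of these sums too, at 137.4 in Cast and 123.0 in NZO. In these bulk libraries, fewer cells of a type and less RNA per cell cannot be told apart.

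After the filter on low counts, 34 of the 37 genes were tested among 16165 genes, and Col10a1, Col22a1 and Col28a1 were not. The filter asks for counts in as many libraries as the smallest strain holds, so a gene seen in 1 strain could pass through it, and counts over the 34 are descriptions. The test among the 8 strains called 34 of 34 at an adjusted p under 0.05 (edgeR's quasi-likelihood F test, Benjamini-Hochberg over all genes tested), where 89.8% of all genes were called. Adjusted p ran from 1.2e-27 to 0.0148, the last for Col27a1. Strain accounted for a median of 63.9% of the variance of log2 CPM over the 34 collagens and of 49.3% over all genes tested, and 25 of the 34 lay above the second value. The medians were 63.7% for fibrillar, 58.3% for basement membrane and 69.8% for other types. Col5a2 (91.5%), Col11a2 (87.3%) and Col14a1 (81.3%) had the highest shares, and Col27a1 (23.6%) the lowest.

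Each strain was next set against the mean of the other 7 on the log2 scale. Such contrasts share libraries, so they are not independent of each other, and a strain far from the rest shifts the mean that the others are read against. Cast showed the most lower calls, with 18 of 34 collagens lower where 28.8% of all genes were lower, and 5 higher where 30.8% were higher. AJ had 10 lower (11.0% of all genes) and 6 higher (13.1%). The calls in WSB ran the other way, 15 higher (22.6% of all genes) and 5 lower (22.4%). NZO had 15 higher (26.7%) and 9 lower (19.5%), and B6 12 higher (19.4%) and 7 lower (14.7%). In NOD 7 were higher (16.7%) and 5 lower (11.6%), in PWK 8 higher (22.5%) and 8 lower (22.7%), and in strain-129 there were 5 higher (13.7%) and 3 lower (10.9%). Median log2 fold changes over the 34 were -0.46 in Cast, -0.23 in AJ, -0.14 in PWK, 0.01 in strain-129, 0.06 in NZO, 0.09 in NOD, 0.16 in WSB and 0.19 in B6. Over all genes they lay between -0.015 and 0.016. Single libraries moved some of these counts by over 1.5 times. Lower calls in AJ were 6 without AJ 8, lower calls in B6 were 4 without B6 3, B6 6 or B6 8, and higher calls in Cast were 3 without Cast 1. With only the libraries of low Xist, strain-129 had 2 higher, AJ 1 higher and 3 lower, and PWK 5 lower. With only those of high Xist, strain-129 had 3 higher. Of the 138 calls in the 8 contrasts, 113 held in the libraries of high Xist alone and 85 in those of low Xist alone, with fewer libraries in each fit.

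**Figure D2:**
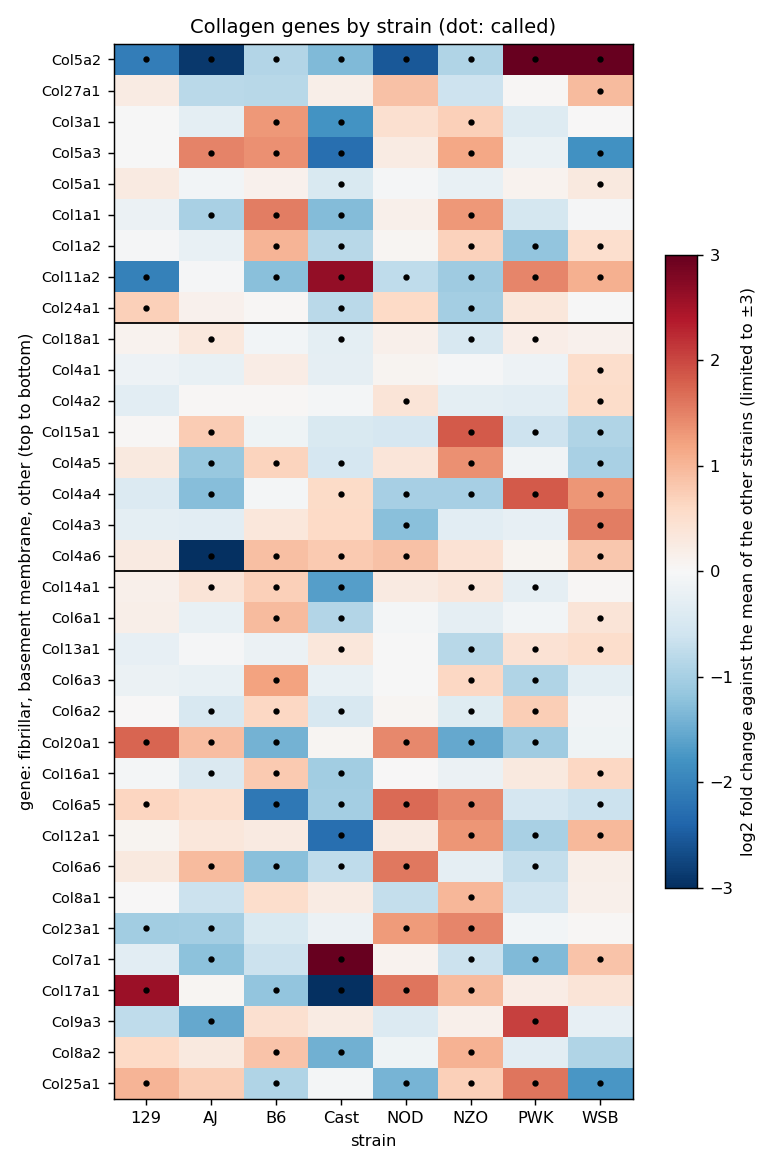
Log2 fold change of each tested collagen gene (rows) in each strain (columns) against the mean of the other 7 strains, with colour limited to 3 in either direction and a dot for each call at an adjusted p under 0.05. The Cast column holds 18 lower calls, and Col5a2 is high in PWK and WSB alone.

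The counts of each class are to be read against the shares of all genes given above for that strain. Among fibrillar genes, Cast had 7 of 9 lower (28.8% of all genes) and 1 higher, and WSB 5 higher (22.6%) and 1 lower. B6 and NZO each had 4 higher, with 2 and 3 lower. Strain-129 had 1 higher and 2 lower, AJ 1 and 2, NOD 0 and 2, and PWK 2 and 1. In NOD 3 were higher at an unadjusted p under 0.05 (edgeR), with 0 called by DESeq2 and 1 by limma. The lower calls in 6 strains include Col5a2, which is read there against a mean that holds PWK and WSB.

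Col5a2, a chain of type V collagen that nucleates fibrils (chr1:45374321-45503282, minus strand, GRCm38), separated the strains most. In WSB its lowest, median and highest library stood at 126, 387 and 997 CPM (mean 436 ± 323, SD, n = 8). In PWK they stood at 46.6, 291 and 597 CPM (mean 317 ± 254, n = 8). The lowest of the 16 PWK and WSB libraries was 1.99 times the highest of the other 44, which was B6 2 at 23.4 CPM. Strain means elsewhere were 2.57 ± 0.504 CPM in AJ (n = 6), 3.20 ± 0.787 in NOD, 4.25 ± 1.06 in strain-129, 8.71 ± 3.15 in NZO (n = 8 each), 6.70 ± 2.43 in Cast and 8.81 ± 6.64 in B6 (n = 7 each). No library of PWK or WSB overlapped any other strain, and inside both strains the spread was wide. The log2 fold change was 5.56 ± 0.23 (SE) in WSB (adjusted p = 9.5e-28, edgeR) and 5.03 ± 0.23 in PWK (adjusted p = 3.5e-26).

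Inside PWK and WSB, Col5a2 split with Xist. The 4 PWK libraries above 100 CPM of Xist held 440 to 597 CPM of Col5a2, and the 4 below held 46.6 to 142. In WSB the ranges were 570 to 997 above and 126 to 203 below. The ranges did not overlap in either strain. Nor did they in NOD, at far lower levels (3.25 to 4.52 above, 2.25 to 3.11 below). They overlapped in the other 5 strains, for example strain-129 (3.85 to 5.75 above, 3.05 to 5.87 below) and Cast (3.10 to 9.57 above, 5.39 to 9.94 below). The mean above was 6.49 times the mean below in PWK, 4.47 times in WSB, 1.98 times in B6 and between 0.911 and 1.47 times in the rest. This grouping was chosen after the values were seen, and the difference was not tested. Among genes of the same stretch of chromosome 1, Col3a1, which lies beside Col5a2, averaged 24.3 ± 6.98 CPM in PWK and 31.3 ± 9.27 in WSB, inside the range of the other strains. Wdr75 had strain means of 8.26 to 12.2 CPM and Slc40a1 of 101 to 185 CPM. The predicted gene Gm38211 averaged 0.88 ± 0.933 CPM in PWK and 1.29 ± 0.975 in WSB (n = 8 each) and at most 0.113 elsewhere. The other type V chains did not share the pattern of Col5a2. Col5a1 had strain means from 11.6 ± 4.98 CPM in Cast (n = 7) to 18.1 ± 2.14 in WSB (n = 8). The mean log2 ratio of Col5a2 to Col5a1 was 4.19 ± 1.18 in WSB and 3.67 ± 1.43 in PWK (SD, n = 8 each), and between -2.47 and -0.66 in the other strains.

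**Figure D3:**
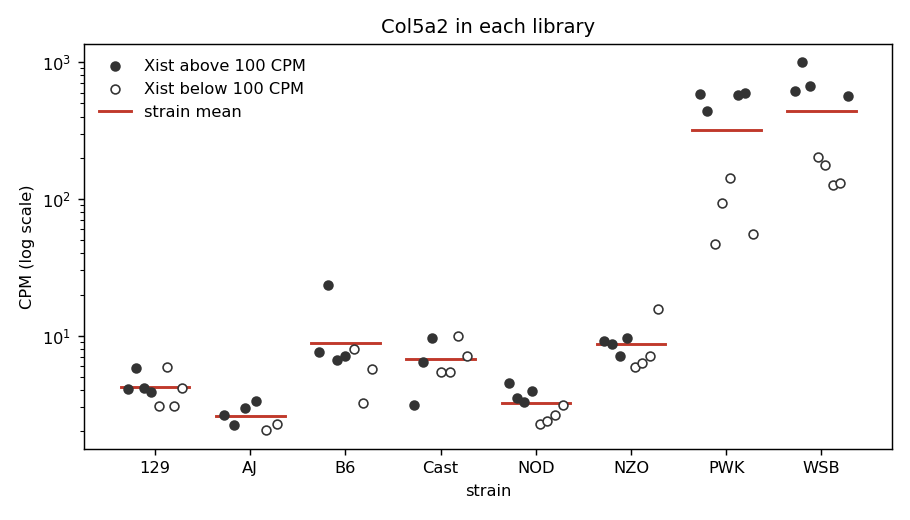
Col5a2 in each of the 60 libraries, in CPM on a log axis, by strain. Filled points are libraries with Xist above 100 CPM, open points those below, and the red line is the strain mean. All 16 PWK and WSB libraries lie at or above 46.6 CPM and the other 44 at or below 23.4.

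The major fibril chains were highest in B6 and NZO and lowest in Cast, AJ or PWK. Col1a1 (chr11:94936224-94953042, plus strand), the main chain of type I, stood at 10.3, 16.4 and 31.7 CPM in B6 (lowest, median, highest, mean 18.1 ± 7.43, n = 7) and at 6.67, 12.9 and 32.5 in NZO (mean 15.8 ± 8.31, n = 8). In Cast it stood at 1.23, 2.77 and 9.14 CPM (mean 3.28 ± 2.77, n = 7), and in AJ at 2.65, 3.63 and 6.30 (mean 3.98 ± 1.38, n = 6). Means in strain-129, NOD, PWK and WSB lay between 5.16 and 7.76. All B6 libraries lay above all Cast and AJ libraries, while NZO overlapped Cast. The log2 fold changes were 1.54 ± 0.24 in B6 (adjusted p = 5.31e-07, edgeR), 1.31 ± 0.23 in NZO (adjusted p = 4.11e-06) and -1.29 ± 0.31 in Cast (adjusted p = 0.000283). AJ was called at -0.96 ± 0.32 (adjusted p = 0.0203), a call that ended without AJ 1 or AJ 8 (adjusted p of at most 0.0619). In the libraries of low Xist alone, of which AJ has 2, the AJ value was -1.34 (adjusted p = 0.233) and the Cast value -0.95 (adjusted p = 0.0916).

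Col3a1 (chr1:45311538-45349706, plus strand), the only chain of type III, showed the same ends. It stood at 43.5, 69.5 and 101 CPM in B6 (mean 67.7 ± 23.1, n = 7) and at 1.598, 10.7 and 24.8 in Cast (mean 10.4 ± 8.41, n = 7), with no overlap between these strains. Its log2 fold change was 1.29 ± 0.23 in B6 (adjusted p = 8.39e-06, edgeR) and -1.80 ± 0.30 in Cast (adjusted p = 8.75e-07). NZO was called at 0.71 ± 0.23 (adjusted p = 0.00814), and without NZO 8 the value was 0.41 (adjusted p = 0.15), and in the low-Xist libraries alone 0.80 (adjusted p = 0.101). For Col1a2, the second type I chain, B6 stood at 18.7, 24.5 and 34.3 CPM and PWK at 2.95, 7.48 and 9.03, again without overlap. Col1a2 was called higher in B6 (log2 fold change 1.02 ± 0.17), NZO (0.70 ± 0.16) and WSB (0.51 ± 0.16), and lower in PWK (-1.19 ± 0.19) and Cast (-0.82 ± 0.20), with adjusted p between 5.53e-07 and 0.00906 (edgeR). These calls held on leaving out each library in turn, and in the low-Xist libraries alone the WSB value was 0.50 (adjusted p = 0.178). Library 7 of strain-129 was high in its strain for all of them (17.3 CPM of Col1a1, 23.4 of Col1a2 and 63.1 of Col3a1), and so was NZO 8 (32.5, 39.0 and 107 CPM).

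**Figure D4:**
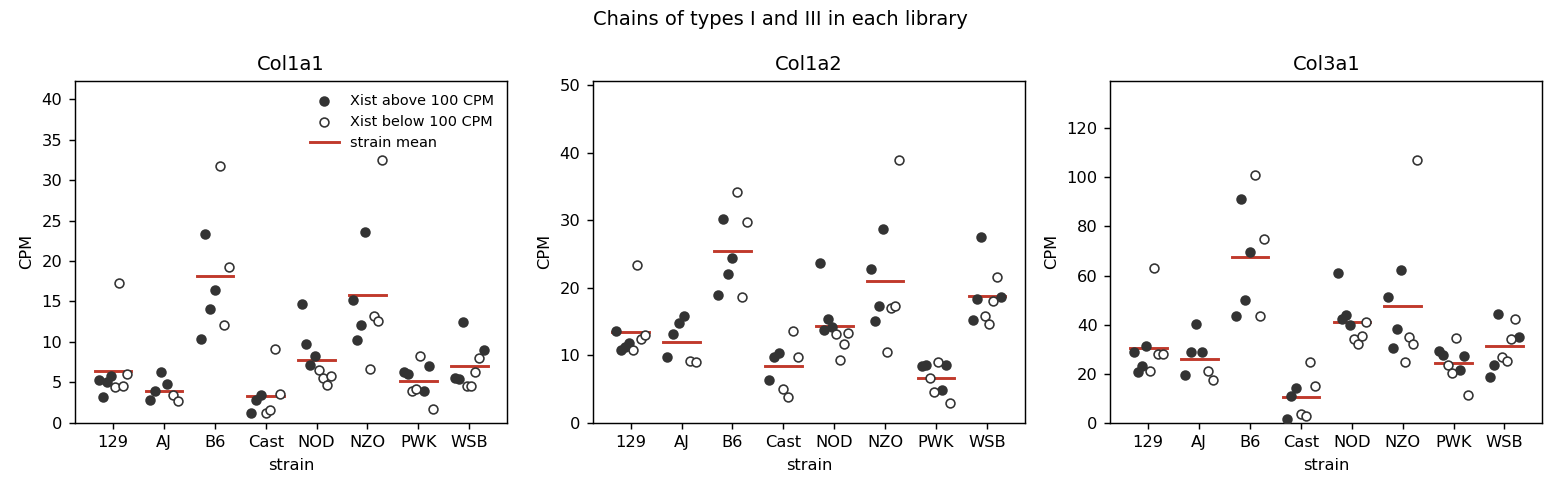
Col1a1, Col1a2 and Col3a1 in each library, in CPM, by strain, with filled points for Xist above 100 CPM, open points below and a red line at the strain mean. B6 lies above Cast without overlap in each panel, and single high points stand out in strain-129 and NZO.

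Col11a2 (a type XI chain that shares fibrils with type II in cartilage and with type V elsewhere) was low in liver, 0.515 CPM per kb, and varied 16.8-fold between strain means. Cast libraries stood at 5.43, 8.70 and 21.8 CPM and those of strain-129 at 0.363, 0.607 and 1.37, with no overlap. Its log2 fold change was 2.63 ± 0.16 in Cast (adjusted p = 1.59e-20, edgeR), 1.46 ± 0.17 in PWK (1.82e-10) and 1.06 ± 0.18 in WSB (1.96e-06), against -2.02 ± 0.24 in strain-129 (5.95e-10). B6, NOD and NZO were called lower at -1.25, -0.77 and -1.07, the NOD value being -0.73 in the low-Xist libraries alone (adjusted p = 0.0768). The wild-derived strains Cast, PWK and WSB were thus the ones called higher. Col24a1, another minor fibrillar chain, had strain means of 0.252 to 0.719 CPM and was called lower in NZO at -1.01 ± 0.32 (adjusted p = 0.00686). In the low-Xist libraries alone that value was -0.30 (adjusted p = 0.66).

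Col5a3, the third type V chain, and Col27a1, a fibrillar chain known from growing cartilage, differed widely inside strains. Col5a3 was called higher in AJ (log2 fold change 1.48 ± 0.34, adjusted p = 0.00079, edgeR), B6 (1.37 ± 0.33, 0.000771) and NZO (1.17 ± 0.32, 0.0019), and lower in Cast (-2.25 ± 0.45, 2.54e-05) and WSB (-1.81 ± 0.41, 0.000252). The NZO call ended without the 4 libraries of high Rn18s-rs5 (0.91, adjusted p = 0.106). Its lowest, median and highest library stood at 27.3, 34.6 and 70.5 CPM in AJ and at 0.449, 6.17 and 7.23 in Cast, which did not overlap. Col27a1 (chr4:63214004-63334991, plus strand) had strain means from 28.1 ± 25.9 CPM in B6 (n = 7) to 82.5 ± 45.6 in WSB (n = 8). WSB alone was called for it (0.94 ± 0.35, adjusted p = 0.0223), and that call ended without WSB 5 or WSB 7 (adjusted p of at most 0.0914).

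Col27a1 had a lower mean in the libraries of high Xist in 8 of 8 strains, and Col5a3 in 7, with Cast the other way (5.36 CPM above, 3.66 below). In NOD the 4 libraries above 100 CPM of Xist held 17.8 to 23.8 CPM of Col27a1, and the 4 below held 113 to 158. In strain-129 Col5a3 was 5.49 to 8.87 CPM above and 19.7 to 32.4 below. Ranges failed to overlap in 6 of the 8 strains for Col27a1 and in 5 for Col5a3, each time with the high-Xist libraries lower. Averaged over strains, the level above was 0.328 times that below for Col27a1 and 0.405 times for Col5a3. For Col5a2 it was 4.74 times over the 8 strains and 1.23 times over the 6 without PWK and WSB. Col14a1 and Col15a1 were higher in the high-Xist libraries without overlap in 4 strains each, with ratios of 1.17 and 1.40. These genes were singled out after their values were seen, and no test was made. The labels give no sex.

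**Figure D5:**
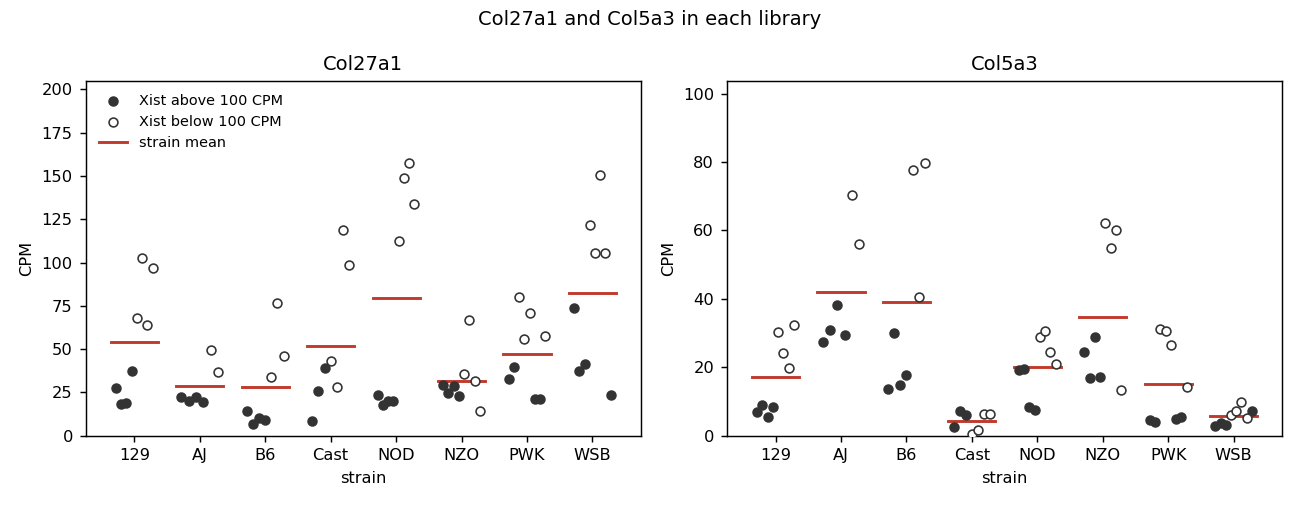
Col27a1 and Col5a3 in each library, in CPM, by strain, with filled points for Xist above 100 CPM, open points below and a red line at the strain mean. In most strains the filled points lie below the open ones, for example 17.8 to 23.8 against 113 to 158 CPM of Col27a1 in NOD.

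Of the 8 basement membrane genes, read against the same shares of all genes, WSB had 5 higher and 2 lower. AJ had 2 higher and 3 lower. Strain-129 had none in either direction, B6 had 2 higher and 0 lower, Cast, NOD and NZO had 2 in each direction, and PWK had 2 higher and 1 lower. At an unadjusted p under 0.05 (edgeR) strain-129 had 0 higher and 1 lower and B6 0 lower, and DESeq2 and limma called 0 in each of these. Col18a1 (chr10:77052178-77166548, minus strand) varied 1.62-fold between strain means. These ran from 864 ± 111 CPM in NZO (n = 8) to 1396 ± 116 in AJ (n = 6). It was called lower in NZO (log2 fold change -0.49 ± 0.08, adjusted p = 9.11e-07, edgeR) and Cast (-0.30 ± 0.08, 0.00133) and higher in AJ (0.31 ± 0.08, 0.00435). Single libraries lay apart in each of these strains, Cast 5 at 448 CPM, NZO 5 at 607 and AJ 8 at 1620, and the calls held without them. In the libraries of high Xist alone, the Cast value was -0.11 (adjusted p = 0.233), and in those of low Xist alone the AJ value was 0.45 (adjusted p = 0.143). PWK was also called higher (0.19, adjusted p = 0.0334, edgeR), a call that ended without PWK 5, PWK 7 or PWK 9. The PWK value was 0.15 in the libraries of high Xist alone (adjusted p = 0.0531) and 0.23 in those of low Xist alone (adjusted p = 0.218). Hepatocyte markers moved beside Col18a1 only in part. Of 6, Cast had 4 lower and 1 higher, NZO 2 lower and 1 higher, AJ 3 higher and PWK 1 lower. In the other strains at most 1 was lower and at most 4 were higher, the 4 in NOD, where Col18a1 was not called. These counts are to be read against the shares of all genes given above. Summed medians were 49740 CPM in Cast, 67820 in NZO and 110900 in AJ, and 67160 to 77960 elsewhere. The part of hepatocytes in the result was not tested.

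Col15a1, the relative of Col18a1 found around vessels, was highest in NZO. Its libraries there stood at 25.9, 34.4 and 41.6 CPM (mean 34.4 ± 5.40, n = 8), above the strain means of 6.52 to 17.9 elsewhere, and the NZO range met that of AJ alone (9.36 to 28.5). The log2 fold change was 1.83 ± 0.21 in NZO (adjusted p = 1.12e-10, edgeR) and -0.90 ± 0.26 in WSB (0.00379), the second of which was -0.44 in the libraries of high Xist alone (adjusted p = 0.157).

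Col4a1 and Col4a2, the chains of the ubiquitous type IV network, are neighbours transcribed away from each other. Their start sites overlap by 22 bases at chr8:11312805-11312826 (GRCm38.p6), shown on the plus strand with the GC box letters GGGCGG in capitals.
Col4a1 and Col4a2 shared start: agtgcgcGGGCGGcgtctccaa
Of the 37 genes, 30 had a promoter entry in RefSeq (GRCm38.p6), and these letters, on either strand, occur in 7.19% of 32851 promoter windows of 22 bases. The windows are the same fixed slice of every promoter entry, while the shared stretch lies inside both genes. The percentages are thus not rates for a like position. A search of both strands for the letters of the CCAAT box found no match (2.94% of windows hold it), and neither did one for the TATA box letters TATAAA (0.6%). Whether counting used strand is not given in the sources used here, so reads over the overlap could not be assigned. Col4a1 stood at 51.9, 82.8 and 110 CPM in WSB (mean 83.2 ± 24.3, n = 8), and other strain means were 51.6 to 69.7. Col4a2 stood at 26.2, 54.5 and 84.1 in WSB (mean 54.8 ± 24.1) with means of 32.3 to 49.4 elsewhere. WSB ranges overlapped those of the other strains for both genes. WSB was called higher for Col4a1 (log2 fold change 0.53 ± 0.11, adjusted p = 5.32e-05, edgeR) and Col4a2 (0.55 ± 0.14, 0.000935). In the libraries of high Xist alone the WSB value was 0.07 for Col4a1 (adjusted p = 0.658) and -0.07 for Col4a2 (adjusted p = 0.709). The WSB libraries of low Xist held 101 to 110 CPM of Col4a1 and those of high Xist 51.9 to 64.7.

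Col4a3 and Col4a4, which with Col4a5 form the network of the kidney filter, form a second such pair. The 71 bases between their start sites (chr1:82586850-82586920, GRCm38.p6, plus strand) are shown because the pair moved apart in PWK.
Col4a4 and Col4a3 gap: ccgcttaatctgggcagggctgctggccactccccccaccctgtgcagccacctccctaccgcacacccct
None of the 3 motifs, GC box, CCAAT box and TATA box, occurs there on either strand, so no letters are in capitals. Of promoter windows of that length 20.73%, 13.32% and 4.41% hold them. Col4a4 stood at 2.60, 3.31 and 3.76 CPM in PWK (mean 3.25 ± 0.429, n = 8) and at 0.983, 1.80 and 4.73 in WSB. No library of strain-129, AJ, B6, Cast, NOD or NZO reached the PWK range. It was called higher in PWK (log2 fold change 1.84 ± 0.17, adjusted p = 1.28e-13, edgeR) and WSB (1.33 ± 0.18, 1.63e-08). It was called lower in AJ (-1.28 ± 0.26, 0.000141), NZO (-1.01, 0.00017) and NOD (-1.001, 0.000403). Col4a3, like Col4a4, was called higher in WSB (1.52 ± 0.25, 1.39e-06) and lower in NOD (-1.25 ± 0.33, 0.00248). In PWK Col4a3 had a value of -0.26 ± 0.30 (adjusted p = 0.515). In the low-Xist libraries alone the value of Col4a3 was 0.23 in WSB (adjusted p = 0.706) and -0.77 in NOD (adjusted p = 0.244), and that of Col4a4 was -1.18 in AJ (adjusted p = 0.0917). The log2 ratio of Col4a3 to Col4a4 was -1.77 ± 0.446 in PWK (SD, n = 8), and strain means elsewhere ran from -0.16 to 0.74.

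The X-linked neighbours Col4a5 and Col4a6 differed in other strains. Col4a5 stood at 2.69, 3.89 and 6.51 CPM in NZO (mean 4.14 ± 1.28, n = 8) and was called higher there (log2 fold change 1.37 ± 0.16, adjusted p = 2.97e-10, edgeR), with AJ (-1.14 ± 0.23, 0.00013) and WSB (-0.97 ± 0.20, 6.84e-05) lower. Col4a6 was near 0 in AJ, at 0, 0.0149 and 0.0368 CPM, and had strain means of 0.253 to 0.416 elsewhere. Its log2 fold change in AJ was -4.15 ± 0.61 (adjusted p = 3.33e-07), a size that depends on the prior count at so few reads. All AJ libraries lay below the medians of the other strains, though the lowest NZO and PWK libraries (0.0312 and 0.0324 CPM) fell inside the AJ range.

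Type VI collagen forms beaded filaments around cells from Col6a1, Col6a2 and a longer chain. Col6a1 stood at 11.8, 13.7 and 15.8 CPM in B6 (mean 13.8 ± 1.65, n = 7) and at 3.50, 4.74 and 6.04 in Cast (mean 4.51 ± 0.971, n = 7), with no overlap. It was called higher in B6 (log2 fold change 0.96 ± 0.12, adjusted p = 1.82e-09, edgeR) and WSB (0.39 ± 0.12, 0.00552) and lower in Cast (-0.88 ± 0.14, 2.92e-07). Col6a2 was highest in PWK, at 7.16, 8.81 and 11.4 CPM (0.74 ± 0.11, adjusted p = 1.97e-07), then B6 (0.63 ± 0.12, 3.52e-05). In the low-Xist libraries alone the value of Col6a1 in WSB was 0.31 (adjusted p = 0.256) and that of Col6a2 in B6 was 0.55 (adjusted p = 0.0711). Col6a3 was highest in B6, at 18.1, 24.6 and 29.4 CPM, and lowest in PWK, at 4.86, 6.14 and 10.8. Its log2 fold changes were 1.22 ± 0.12 in B6 (8.83e-13), 0.63 ± 0.12 in NZO (1.01e-05) and -0.90 ± 0.13 in PWK (7.4e-08). The NZO value of Col6a3 was 0.33 in the libraries of high Xist alone (adjusted p = 0.0635). PWK thus lay at opposite ends for Col6a2 and Col6a3. The alternative long chains Col6a5 and Col6a6 reversed the order of the main chains in B6. Col6a5 stood at 0.19, 0.688 and 0.82 CPM in B6 and at 4.88, 6.29 and 7.60 in NOD. Its log2 fold change was -2.15 ± 0.27 in B6 (4.39e-09), 1.71 ± 0.18 in NOD (2.05e-11) and 1.45 ± 0.18 in NZO (2.2e-09). Col6a6 was -1.26 ± 0.23 in B6 (1.17e-05) and 1.59 ± 0.16 in NOD (9.25e-12).

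Strain differences in the ratio of chains that meet in 1 trimer or fibril were tested for 5 pairs. The F statistic of the log2 CPM difference was set against 100000 permutations of the strain labels over the 60 libraries, with Benjamini-Hochberg adjustment over the 5. The mean log2 ratio of Col1a1 to Col1a2 ran from -1.597 ± 0.223 in AJ (SD, n = 6) to -0.41 ± 0.255 in PWK (n = 8). That of Col3a1 to Col1a1 ran from 1.45 ± 0.65 in Cast (n = 7) to 2.70 ± 0.109 in AJ. For Col6a1 to Col6a2 it ran from -0.32 ± 0.269 in PWK to 0.83 ± 0.237 in WSB (n = 8 each), and for Col6a3 to Col6a1 from -0.17 ± 0.235 in PWK to 1.43 ± 0.479 in NZO. In these 4 pairs the ratio differed among strains at a permutation p of 1e-05, the smallest that the permutations can give (adjusted p = 1.25e-05). The ratio of Col4a1 to Col4a2 was the most even, from 0.39 ± 0.099 in AJ to 0.82 ± 0.127 in NZO (permutation p = 0.00102, adjusted p = 0.00102).

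Collagens that attach to the surface of fibrils were lowest in Cast. Col14a1 stood at 9.89, 29.0 and 41.2 CPM there (mean 25.3 ± 11.1, n = 7), below every library of every other strain. B6 was highest at 94.7, 99.7 and 127 CPM (mean 105 ± 12.7, n = 7). The log2 fold change was -1.64 ± 0.14 in Cast (adjusted p = 2.56e-15, edgeR) and 0.71 ± 0.11 in B6 (9.33e-07). Col12a1, a relative of Col14a1 in dense tissue, was lower in Cast (-2.27 ± 0.24, 5.14e-12) and PWK (-0.98 ± 0.20, 4.13e-05) and higher in NZO (1.32 ± 0.16, 9.5e-10) and WSB (0.96 ± 0.17, 3.35e-06). Col16a1, of the same family, was higher in B6 (0.79 ± 0.13, 1.34e-06) and WSB (0.62 ± 0.12, 3.7e-05) and lower in Cast (-1.05 ± 0.15, 4.04e-08). Col20a1 had another order. Its strain means were 7.43 ± 2.00 CPM in strain-129 (n = 8), 6.14 ± 1.33 in NOD (n = 8) and 4.55 ± 1.04 in AJ (n = 6), and between 1.01 and 2.64 in the rest. It was called higher in strain-129 (1.74 ± 0.22, 3.48e-09), NOD (1.43 ± 0.22, 7.56e-07) and AJ (0.94 ± 0.26, 0.00512), and lower in B6 (-1.43 ± 0.31, 0.0002), NZO (-1.54 ± 0.29, 1.45e-05) and PWK (-1.07 ± 0.28, 0.00121). In the low-Xist libraries alone the AJ value was 1.20 (adjusted p = 0.162) and the PWK value -1.10 (adjusted p = 0.0863).

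Col7a1, which forms the anchoring fibrils of skin, stood at 2.14, 2.86 and 6.86 CPM in Cast (mean 3.71 ± 1.85, n = 7), above every library elsewhere, where strain means were 0.236 to 0.896. The log2 fold change in Cast was 3.20 ± 0.20 (adjusted p = 6.56e-21, edgeR), so Col7a1 and Col11a2 went against the lower calls of most collagens in this strain. PWK was lower at -1.32 ± 0.28 (0.000114).

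Membrane-bound collagens varied one by one. Col17a1, a component of the attachment plaques of epithelia, stood at 0, 0 and 0.0382 CPM in Cast and at 0.759, 1.04 and 1.32 in strain-129. It was called higher in strain-129 (log2 fold change 2.57 ± 0.26, adjusted p = 6.2e-12, edgeR) and NOD (1.61 ± 0.28, 6.97e-06) and lower in Cast (-4.61 ± 0.59, 1.62e-09). With Cast so near 0, the size of that value depends on the prior count, and the mean that other strains were read against was drawn down. Col13a1 was called lower in NZO (-0.83 ± 0.14, 1.73e-06) and higher in WSB (0.53 ± 0.12, 0.000396) and PWK (0.43 ± 0.12, 0.00358), with strain means of 3.20 to 7.27 CPM. The WSB value was 0.29 in the low-Xist libraries alone (adjusted p = 0.185) and the PWK value 0.33 in those of high Xist alone (adjusted p = 0.124). Col23a1 was higher in NZO (1.47 ± 0.25, 1.49e-06) and NOD (1.27 ± 0.25, 6.69e-05). Both calls ended in the low-Xist libraries alone, at 0.67 in NZO (adjusted p = 0.191) and 0.50 in NOD (adjusted p = 0.428). Col25a1, at strain means of 0.104 to 0.822 CPM, was higher in PWK (1.601 ± 0.26, 7.67e-07) and lower in WSB (-1.75 ± 0.38, 0.000127) and NOD (-1.39 ± 0.36, 0.00237), the last at -1.30 in the low-Xist libraries alone (adjusted p = 0.0857).

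The remaining genes were scarce. Col9a3, a cartilage chain, averaged 0.573 ± 0.127 CPM in PWK (n = 8) and 0.0619 to 0.221 elsewhere (log2 fold change 2.05 ± 0.30, adjusted p = 8.97e-08, edgeR). The short chains Col8a1 and Col8a2 had strain means of 0.537 to 1.53 and 0.0596 to 0.286 CPM, and Col10a1 and Col22a1 were at or below 0.199 CPM in every strain mean. Col28a1, a type XXVIII chain of nerve sheaths, was at 0 in 27 libraries and at 60.1 CPM in PWK 9. The highest of the other 59 libraries was at 0.274 CPM. PWK 9 was also low in its strain for Col1a1 (1.70 CPM), Col3a1 (11.2) and Col4a5 (0.815).

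Genes of the wider collagen pathway were counted from lists of chain modification, folding and export, propeptide processing, crosslinking, degradation, receptors, signalling and matrix partners. Of 111 tested members, 107 were called among strains, where 89.8% of all genes were called. B6 had 49 higher (44.1%) and 4 lower (3.6%), the most one-sided split, against 19.4% and 14.7% of all genes. Cast had 28 higher (25.2%, against 30.8% of all genes) and 42 lower (37.8% against 28.8%). AJ had 8 higher (7.21% against 13.1%) and 25 lower (22.5% against 11.0%), and PWK 22 higher (19.8% against 22.5%) and 33 lower (29.7% against 22.7%). WSB had 35 higher (31.5% against 22.6%) and 16 lower (14.4% against 22.4%). The shares lay near those of all genes in NZO (30 higher, 27.0% against 26.7%, and 24 lower, 21.6% against 19.5%) and in NOD (16 higher, 14.4% against 16.7%, and 15 lower, 13.5% against 11.6%). In strain-129, 18 were higher (16.2% against 13.7%) and 16 lower (14.4% against 10.9%). The counts of single lists below are to be read against the same shares of all genes. The NZO lower count was 15 without the 4 libraries of high Rn18s-rs5. The lower count was 10 in strain-129 without its library 8, and the higher count in AJ was 4 or 5 without AJ 2, AJ 3 or AJ 6. The lower count in B6 was 7 under DESeq2, with replicate number or with Xist in the model, and 7 or 8 without B6 2, AJ 6, Cast 6, NOD 5, NZO 5 or WSB 5.

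Enzymes that modify collagen chains in the cell were counted first. Of 14, NZO had the most lower calls, 6, with 2 higher, and Cast the most higher calls, 7, with 0 lower. WSB had 5 higher and 2 lower, PWK 4 and 4, B6 1 and 4, and strain-129 had 1 and 2, while AJ had 4 lower and NOD 3. Colgalt2, which adds galactose to hydroxylysine, stood at a mean of 19.9 ± 9.24 CPM in Cast (n = 7), 15.0 ± 2.999 in PWK (n = 8) and 0.453 ± 0.136 in B6 (n = 7). Its log2 fold changes were 2.90 ± 0.18 in Cast (adjusted p = 5.72e-21, edgeR), 2.43 ± 0.17 in PWK (6.05e-18) and -3.31 ± 0.31 in B6 (4.19e-13). The prolyl hydroxylase subunit P4ha1 was higher in WSB (1.09 ± 0.14, 4.52e-09), and so was the collagen chaperone Serpinh1 (0.57 ± 0.13, 0.000381), which was lower in AJ (-0.58 ± 0.17, 0.00657). That AJ call ended in the libraries of high Xist alone (-0.43, adjusted p = 0.0914) and in those of low Xist alone (-0.78, adjusted p = 0.101). Of 6 genes for propeptide processing, WSB had 5 higher and 0 lower, B6 had 3 higher, and the other strains had at most 1 in either direction. The counts of 0 in Cast and WSB were also 0 at an unadjusted p under 0.05 (edgeR) and under DESeq2 and limma. Adamts2, which removes the amino propeptide, was higher in B6 (0.80 ± 0.13, 7.62e-07).

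Partners outside the cell are given next. Of 21 interstitial matrix partners, B6 had 14 higher and 0 lower, and of 15 basement membrane partners 10 higher and 0 lower, while Cast had 0 higher and 13 lower of the second list. Of the first list strain-129 had 8 higher and 6 lower, NZO 6 and 5, WSB 6 and 1, PWK 3 and 9, Cast 2 and 8 and AJ 2 and 5, and NOD had 5 higher. These counts of 0 were also 0 at an unadjusted p under 0.05 (edgeR) and under DESeq2 and limma. The laminin chain Lama4 averaged 1.58 ± 0.377 CPM in PWK (n = 8) and 5.34 to 11.4 elsewhere (log2 fold change -2.48 ± 0.12, adjusted p = 5.03e-25, edgeR). Nid2, which links laminin to type IV collagen, was lower in Cast (-2.12 ± 0.21, 1.32e-12). Periostin (Postn) averaged 1.97 ± 1.08 CPM in PWK (-2.73 ± 0.21, 2.28e-16). The fibril regulator Lum was lower in Cast (-2.25 ± 0.22, 5.25e-13) and PWK (-1.62 ± 0.20, 3.95e-10).

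Among 7 crosslinking genes NZO had 3 higher and 2 lower, Cast 2 and 3 and PWK 2 and 4. B6 had 4 higher and 0 lower, with 0 lower also at an unadjusted p under 0.05 (edgeR) and under DESeq2 and limma. Loxl4, a lysyl oxidase, was higher in B6 (log2 fold change 3.39 ± 0.33, adjusted p = 1.8e-12, edgeR), with libraries from 1.44 to 35.5 CPM, and Pxdn, which crosslinks type IV, was higher in PWK (1.23 ± 0.09, 1.55e-18). Of 10 receptors, Cast had 5 higher and 2 lower and WSB 1 and 4, and PWK had 5 higher and 0 lower, among them Adgrg1, a receptor for type III, at 20.8 ± 1.32 CPM (n = 8) against strain means of 2.03 to 7.35 elsewhere (2.42 ± 0.12, 1.91e-24). At an unadjusted p under 0.05 (edgeR) 1 receptor was lower in PWK, and DESeq2 and limma called 0. The collagen-cleaving protease Ctsk averaged 1.74 ± 0.518 CPM in PWK and 0.0178 ± 0.0394 in NOD (n = 8 each), with log2 fold changes of 2.04 ± 0.20 (5.9e-13) and -4.96 ± 0.40 (2.86e-15).

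Hepatocyte markers summed to between 21270 and 138700 CPM over the libraries. Markers of cells that make collagen moved with strain as well. The summed level of 11 stellate markers had medians of 642 CPM in WSB (576 to 726), 565 in NOD, 558 in B6, 528 in strain-129, 490 in AJ, 423 in PWK, 416 in Cast (286 to 463) and 360 in NZO (276 to 394). Of these markers B6 had 5 higher and 1 lower, Cast 3 and 6, and NZO 0 and 6 (edgeR), with 0 higher in NZO also at an unadjusted p under 0.05 and under DESeq2 and limma. The lowest summed stellate level was that of NZO, and abundant markers weigh most in such a sum. The 5 measured markers of activated stellate cells were highest in Cast (median 33.2 CPM, 4 higher) and lowest in PWK (11.99 CPM). Of these 5, NZO had 3 higher, B6 had 2 higher and NOD 1 higher. PWK had 1 in each direction, and AJ and WSB had 1 lower each. Portal fibroblast markers had a median of 166 CPM in NZO (34.8 to 251, 4 of 6 higher) and 88.3 in B6 (3 higher), against 20.7 in WSB. PWK also had 3 higher, with 1 lower (median 37.05 CPM), and Cast had 1 higher and 4 lower (35.11 CPM). All marker counts here are to be read against the shares of all genes given above. Kupffer markers were higher for 6 of 6 in B6 and 5 of 6 in NZO, and lower for 6 of 6 in Cast. The part of these cells in the collagen values was not tested. Muscle markers summed to at most 2163 CPM in a NOD library, against a NOD median of 6.50, and 4 of 4 were called higher in NOD (edgeR). The part of muscle RNA in the NOD collagen values was not tested. Cfd, the 1 adipocyte marker of 4 with a row, was called higher in B6 (log2 fold change 5.57, adjusted p = 8.51e-11, edgeR) and NZO (3.03, adjusted p = 0.000223). These calls rested on few libraries, with B6 8 at 17.7 CPM, B6 6 at 11.6, B6 7 at 4.49 and NZO 5 at 6.70, while the other libraries of both strains were at or below 0.812 CPM. The NZO call ended without NZO 5 (0.91, adjusted p = 0.363), and in the libraries of high Xist alone, which hold none of the 3 B6 libraries, the B6 value was -1.26 (adjusted p = 0.545). Col1a1 in B6 was 12.04 to 31.7 CPM in those 3 libraries and 10.3 to 23.4 in the other 4. In the libraries of high Xist alone the B6 calls held, with log2 fold changes of 1.36 for Col1a1, 0.85 for Col1a2 and 1.23 for Col3a1. The 3 B6 libraries of high Cfd are also all the B6 libraries of low Xist. Cfd and Xist therefore cannot be told apart in B6, and the part of either in the collagen values was not tested.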

How the data were processed

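Polyadenylated liver RNA was sequenced in 60 libraries of 8 strains with a column in the table, of 61 labelled samples, and 1 column that matched no label was not used. The authors deposited 1 table of estimated counts per gene without normalisation, and 20.09% of its values were not whole. The design had assumed whole counts, so they were rounded. The deposited log2-scale values come from a variance-stabilising transformation and were used in 1 alternative. The submitters' processing notes name GRCm38 and DESeq2. For the aligner, the counter, the use of strand and the handling of strain-specific sequence, the entry is: not given in the sources used here. Counts were fitted with edgeR 4.0.16 in R 4.3.3 (TMM, filterByExpr, quasi-likelihood F test, strain as the only factor), with two-sided p-values adjusted by Benjamini-Hochberg over 16165 genes in each contrast. Genes under 0.05 are termed called, and higher or lower refers to the mean of the other 7 strains. Each SE was derived from the log2 fold change and its F statistic, and it is unreliable where a strain is near 0. Exon lengths are unions of GENCODE M21 exons. Log2 ratios and variance shares used a prior count of 2. The text names 15 collagens of a fixed list, the 3 called collagens with the largest positive and negative fold change in each strain, the 3 with the highest variance share, and at most 2 called genes per pathway list and strain. Other members appear by range, or were added after their values were seen. The members and lists were chosen with earlier results of these data known. Alternatives were DESeq2 1.42.0, limma 3.58.1 on the log2 values, RLE scaling, no filter, the replicate number as a block, Xist as a covariate, the omission of libraries and, added after seeing the data, Xist classes. Scripts were tested on simulated data. No intervals of reads are given, and polymerase copies are not independent molecules.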

Additional observations from a re-analysis of the deposited data

Results flagged for a closer look

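Within strains, 255 groups of libraries were looked at for a highest or lowest library far from the rest, and 21 stood apart in 14 libraries. For normally distributed values chance gives about 1 in 20 groups. That rate was not checked for CPM, some of them near 0, so the count of 21 is a description. Library 7 of strain-129 was high for Col1a1 (17.3 CPM, the others at 3.2 to 5.98), Col1a2 (23.4, others 10.7 to 13.7) and Col3a1 (63.1, others 20.5 to 31.1). PWK 9 was low for Col1a1 (1.7 CPM, others 3.92 to 8.22), Col3a1 (11.2, others 20.3 to 34.4) and Col4a5 (0.815, others 1.46 to 2.12), and high for Col28a1 (60.1, others at most 0.0358). NZO 8 was high for Col6a1 (13.7 CPM, others 3.99 to 6.86) and Col28a1 (0.0948, others at most 0.0339).

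Col18a1 was high in AJ 8 (1620 CPM, others 1320 to 1410) and low in Cast 5 (448, others 899 to 1280) and NZO 5 (607, others 861 to 970). Cast 6 was low for Col6a5 (0.155 CPM, others 0.838 to 2.03) and Col4a4 (0.466, others 1.17 to 2.12). Library 1 of strain-129 was low for Col4a4 (0.493 CPM, others 0.774 to 1.14). Col4a1 was low in NOD 2 (45.4 CPM, others 59.7 to 72.5), and Col6a2 was high in NOD 1 (8.1, others 5.26 to 6.21). Col11a2 was high in PWK 4 (11.5 CPM, others 3.81 to 5.98), and Col6a5 was high in AJ 3 (4.9, others 2.47 to 3.09). Col17a1 was low in PWK 3 (0.0787 CPM, others 0.207 to 0.306) and in WSB 8 (0, others 0.153 to 0.562).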

How the results depend on the processing

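For 33 counts and 5 ratio tests, 282 of 292 values under other settings stayed on the side of the reported value or, for counts, within 1.5 times of it. So did 1965 of 1980 values of the 33 counts with 1 library left out, which was not run for the ratio tests. Higher collagen calls moved to 3 with high-Xist libraries alone and 2 with low-Xist libraries alone in strain-129, to 1 with low-Xist libraries alone in AJ, and to 3 with limma on the log2 values in Cast. Lower collagen calls moved to 3 in AJ and 5 in PWK with low-Xist libraries alone. Lower calls of pathway genes moved to 7 in B6 under DESeq2, the Xist covariate or the replicate block, and to 15 in NZO without the libraries of high Rn18s-rs5. Leaving out 1 library gave 6 to 10 lower collagens in AJ, 4 to 7 in B6, 3 to 6 higher in Cast, 10 to 18 lower pathway genes in strain-129, 4 to 9 higher in AJ and 4 to 8 lower in B6. The direction turned for Col4a2 in WSB (-0.068, high-Xist libraries) and Col15a1 in PWK (0.034, low-Xist libraries). The cause of these changes was not tested. Of 138 calls, 138 held under DESeq2, 127 with limma and 134 under the replicate block, and 107 held on leaving out each library. Libraries with the same replicate number had a median correlation of deviations of 0.201, against -0.07 for other numbers. Since 131 of 181 such pairs, not all, were over 0.1 (lowest -0.429), and the labels tie the numbers to nothing shared, they were not taken as a pairing. In most strains the numbers went with Xist. In NOD and NZO, for example, libraries 1 to 4 were above 100 CPM of Xist and 5 to 8 below. PWK departed, with libraries 3 to 5 below and 6 and 7 above. The part of Xist in this correlation, and in the fit with replicate number as a block, was not tested. Of 60 libraries, 13 correlated best with their own number.

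Low reads limited Col17a1 in Cast, Col4a6 in AJ and every gene below about 0.1 CPM, where a library held few reads and fitted fold changes depend on the prior count.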
